A study of Homo sapiens with 6 samples.

Results

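The genes described here are ASNS, PYCR1, ALDH18A1, GPT2, GOT1, GOT2, GLUL and PCK2, which encode enzymes that make or interconvert asparagine, proline, glutamate, glutamine, alanine and aspartate, together with a mitochondrial enzyme that draws on oxaloacetate. They were chosen by symbol, with earlier results of these data known, and all 8 were found among the 16070 genes of the expression table. NCI-H1299, a long-established line from a human lung tumour, was grown in RPMI-1640 with serum and added L-glutamine, a medium that also supplies asparagine, proline, glutamate and aspartate. Of the 6 libraries, 3 came from cells given 25 µM of 6p, a derivative of platensimycin, for 48 h, and 3 from cells given vehicle (0.1% DMSO) over that time. The labels do not state the solvent content of the 6p medium. The vehicle libraries are called control, although a label field names them untreated.

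Glutamate and glutamine are the main carriers of nitrogen in cultured cells. Aminotransferases move the amino group of glutamate onto oxaloacetate or pyruvate to make aspartate or alanine, asparagine synthetase moves the amide group of glutamine onto aspartate, and proline is built from the carbon of glutamate. When amino acids run short or the endoplasmic reticulum is stressed, translation of the transcription factor ATF4 increases, and ASNS, PYCR1, ALDH18A1, GPT2 and PCK2 are known among the genes it can act on. ATF4 binds with C/EBP partners to an element that joins a part of an ATF site to a part of a C/EBP site.

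Of the 8 genes, 5 rose in 6p-treated cells (ASNS, PCK2, GOT1, PYCR1 and GPT2), 2 fell (GOT2 and ALDH18A1) and 1, GLUL, did not pass the test. Levels are FPKM, fragments scaled by gene length and by the library's fragment total. Fold changes are of 6p against control on the log2(FPKM + 1) scale with their SE, means carry the SD of 3 libraries, and adjusted p-values come from limma over 11745 tested genes with a threshold of 0.05. A change in the amount of RNA per cell cannot be seen in such values. Over all tested genes 46.5% passed, 21.3% as higher and 25.1% as lower, so that a call alone says little about a gene in these libraries. By size, 4 of the 8 genes were at least 2-fold higher, against 1.65% of tested genes, and the median log2 fold change was 0.96 over the 8 genes and -0.04 over all tested genes. Because the 8 genes were chosen with earlier results of these data known, these values describe the set and do not test it. After rescaling to TPM (each library brought to the same sum) the median of all tested genes was -0.21, and the split of 2506 higher and 2951 lower genes became 1526 and 3991.

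Fragment totals lay between 16775655 and 19957335 per library, and the fragments behind each of the 8 genes numbered between 447 (PCK2 in control replicate 2) and 37799 (ASNS in 6p replicate 1). Keratins KRT8 and KRT18 and VIM were high in all libraries, KRT19 was at most 0.196 FPKM, and of 7 listed markers of blood, endothelial and fibroblast cells 6 stayed at or under 0.317 FPKM. The exception, CD68, a lysosomal protein, lay between 56.4 and 71.0 FPKM. Control replicate 3 and 6p replicate 1 stood apart from the rest of their groups by gene length: in both, values of short genes were raised and those of long genes lowered (Spearman's rho over genes -0.677 and -0.517). For all 8 genes control replicate 3 also lay on the 6p side of the mean of the other 2 control libraries, by 1.84% of the way for ASNS to 25.6% for GLUL. The share of all tested genes that did so is not given here, so this is not shown to be particular to the 8 genes. Without both libraries the log2 fold changes were 2.90 for ASNS, 2.70 for PCK2, 1.27 for GOT1, 1.28 for PYCR1, 0.88 for GPT2, -0.46 for ALDH18A1, -0.48 for GOT2 and -0.15 for GLUL, and the same number of genes passed in each direction (5 and 2).

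**Figure D1:**
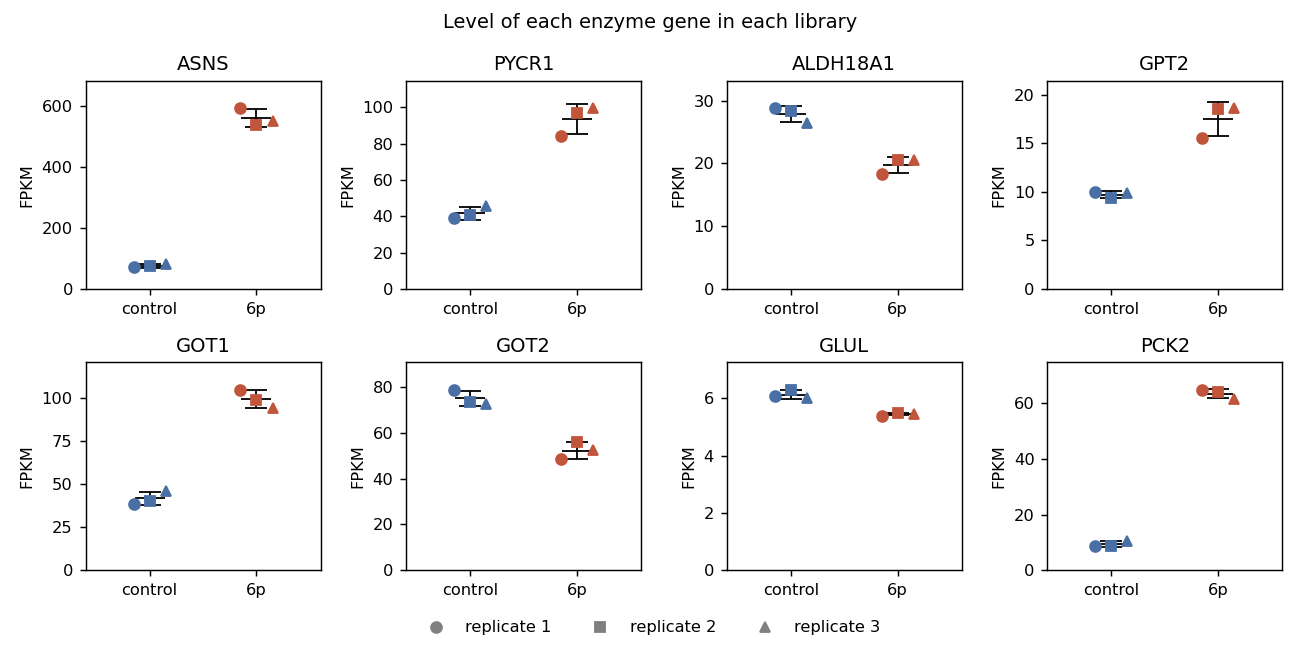
FPKM of each of the 8 genes (vertical axes, each from 0) in the control (blue) and 6p (red) libraries, with a symbol for each replicate and black marks for the mean and SD of 3 libraries. In every panel the 3 control points and the 3 6p points occupy separate ranges, which was so for 57.5% of all tested genes. ASNS and PCK2 show the widest gaps and GLUL the narrowest.

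ASNS, asparagine synthetase, makes asparagine from aspartate and glutamine in the cytosol. It read 70.4, 74.0 and 81.2 FPKM in control replicates 1 to 3 and 593, 538 and 552 FPKM in 6p replicates 1 to 3. The lowest 6p library was thus 6.63 times the highest control library, and the ranges were far apart. The mean level rose 7.46-fold, with a log2 fold change of 2.88 ± 0.09 (adjusted p = 1.68e-06). By mean level ASNS stood at place 893 of the 11745 tested genes in control and at place 101 in 6p. Its log2 fold change was the 7th highest of all tested genes on the log2(FPKM + 1) scale, which understates changes of low genes. ASNS (NCBI gene 440) lies on chromosome 7, 97851677 to 97928441, in RefSeq on GRCh38. GENCODE release 29 lists 4 pseudogenes named after ASNS and an overlapping transcript on the same strand. The sources do not say how reads shared by such loci were assigned.

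The RefSeq promoter table (GRCh38.p14) was searched for the letters TGATGNAA, the core of the C/EBP-ATF response element, on either strand of the 250 bases before each start. It holds 8 windows, for 6 of the 8 genes, and 1 window each of ASNS and GOT1 had a match. Among windows of all genes the share with a match was 3.14%, and among those of tested genes 1.59%. The 2 stretches are shown because the genes with a match were among those that rose. They are written on the strand of the gene with the matching letters in capitals, the ASNS stretch at chr7:97872458-97872487 (minus strand) and the GOT1 stretch at chr10:99430804-99430833 (minus strand).
ASNS: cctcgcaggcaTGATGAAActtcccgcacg
GOT1: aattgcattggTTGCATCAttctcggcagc
The ASNS match begins 68 bases before the start site of this window and reads along the gene's strand. A further ASNS window, for another start, held no match. The GOT1 match begins 198 bases before the start, and its letters are on the opposite strand. Some annotated transcripts in GENCODE release 29 start further upstream, so both stretches also lie in exons of their own gene. ALDH18A1, GOT2, GLUL and PCK2 had no such letters in their windows, which says nothing about sites elsewhere, and PYCR1 and GPT2 were not searched.

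PCK2, the mitochondrial phosphoenolpyruvate carboxykinase, turns oxaloacetate into phosphoenolpyruvate. It read 8.92, 8.69 and 10.6 FPKM in control replicates 1 to 3 and 64.8, 63.9 and 61.6 FPKM in 6p replicates 1 to 3. All 6p libraries were close together, and the lowest was 5.82 times the highest control library, which was control replicate 3. The mean rose 6.75-fold, from 9.40 ± 1.04 to 63.4 ± 1.63 FPKM, with a log2 fold change of 2.64 ± 0.09 (adjusted p = 1.92e-06). This was the 10th highest of all tested genes on the log2(FPKM + 1) scale. PCK2 moved from place 5678 to place 1124 by level. Its gene (NCBI gene 5106) lies on chromosome 14, 24094171 to 24104125. PCK1, the cytosolic form of the enzyme, was not analysed here.

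Of the aspartate aminotransferases, which interconvert aspartate and oxaloacetate with glutamate and 2-oxoglutarate, the cytosolic form rose and the mitochondrial form fell. GOT1, the cytosolic form, read 38.8, 40.2 and 46.3 FPKM in control and 105, 98.9 and 94.6 FPKM in 6p. Every 6p library was at least 2.04 times the highest control library. GOT1 rose 2.38-fold in the mean, with a log2 fold change of 1.24 ± 0.09 (adjusted p = 5.14e-05). Genes in its decile of length had a median log2 fold change of 0.14, and with the length trend removed that of GOT1 was 1.10. GOT2, the mitochondrial form, read 78.7, 73.4 and 72.6 FPKM in control and 48.3, 55.9 and 52.2 FPKM in 6p. The lowest control library was 1.30 times the highest 6p library, so the ranges did not overlap. GOT2 fell, with a log2 fold change of -0.52 ± 0.08 (adjusted p = 0.00161). GOT1 (NCBI gene 2805) lies on chromosome 10, 99396870 to 99430624, and GOT2 (2806) on chromosome 16, 58707131 to 58734316. Each overlaps a non-coding gene on the opposite strand in GENCODE release 29, and 4 pseudogenes are named after GOT2.

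The ratio of GOT1 to GOT2 within a library does not depend on how libraries are scaled. It was 0.494, 0.548 and 0.638 in control replicates 1 to 3 and 2.18, 1.77 and 1.81 in 6p replicates 1 to 3. GOT2 transcripts were thus the more abundant of the pair in all 3 control libraries, and GOT1 transcripts in all 3 6p libraries. The mean log2 ratio went from -0.84 ± 0.19 to 0.93 ± 0.16, a difference of 1.78 (exact permutation test over libraries, two-sided, p = 0.1). This is the smallest p that 3 against 3 libraries allow, and the same p, raw and adjusted, was reached by each of the 3 ratios reported.

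Proline is made from glutamate in a few steps, of which ALDH18A1 encodes the enzyme of the opening reactions and the PYCR genes encode the reductases that finish it. PYCR1, a mitochondrial pyrroline-5-carboxylate reductase, read 39.0, 40.6 and 45.8 FPKM in control and 84.1, 96.9 and 99.6 FPKM in 6p. The lowest 6p library, replicate 1, was 1.84 times the highest control library, replicate 3. PYCR1 rose 2.24-fold in the mean, with a log2 fold change of 1.14 ± 0.09 (adjusted p = 9.64e-05), and by 0.98 after rescaling to TPM. ALDH18A1, the pyrroline-5-carboxylate synthase, read 28.8, 28.4 and 26.5 FPKM in control and 18.3, 20.5 and 20.5 FPKM in 6p. The lowest control library was 1.29 times the highest 6p library, so its ranges were separate in the opposite direction. It fell, with a log2 fold change of -0.48 ± 0.08 (adjusted p = 0.00186). PYCR1 (NCBI gene 5831) lies on chromosome 17, 81932391 to 81937300, where it overlaps MYADML2 and an antisense gene, and ALDH18A1 (5832) on chromosome 10, 95605941 to 95656711.

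The PYCR1 to ALDH18A1 ratio was 1.35, 1.43 and 1.73 in control and 4.59, 4.73 and 4.85 in 6p. The last enzyme of the path was therefore the more abundant transcript in every library, and more so in the 6p libraries. The mean log2 ratio went from 0.58 ± 0.19 to 2.24 ± 0.04, a difference of 1.66 (exact permutation test, two-sided, p = 0.1). PYCR3, the cytosolic reductase, was 6.01 ± 0.539 FPKM in control and 5.64 ± 0.457 FPKM in 6p, with overlapping ranges and an adjusted p of 0.505.

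**Figure D2:**
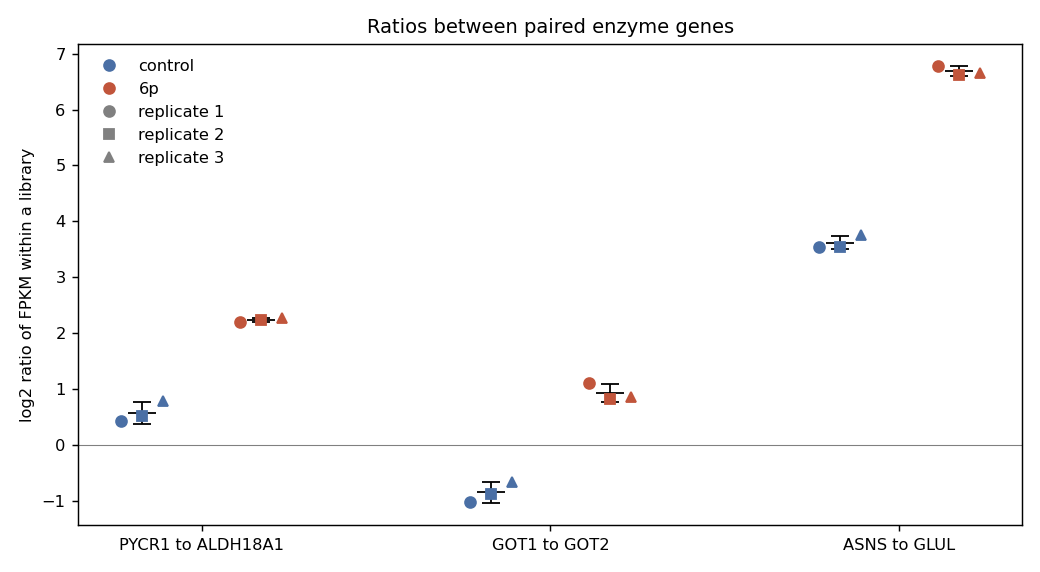
Log2 ratio of FPKM between 2 genes of the same library (vertical axis) for the 3 pairs, in control (blue) and 6p (red), with symbols for replicates and black marks for the mean and SD of 3 libraries. GOT1 to GOT2 crosses 0, from a mean of -0.84 to 0.93, PYCR1 to ALDH18A1 goes from 0.58 to 2.24, and ASNS to GLUL goes from 3.62 to 6.68.

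GPT2, the mitochondrial alanine aminotransferase, moves the amino group of glutamate onto pyruvate. It read 9.98, 9.33 and 9.83 FPKM in control and 15.5, 18.5 and 18.6 FPKM in 6p. The lowest 6p library, replicate 1, was 1.55 times the highest control library. GPT2 rose 1.80-fold in the mean, with a log2 fold change of 0.79 ± 0.09 (adjusted p = 0.000356). Its cytosolic counterpart GPT was below the filter of 0.5 FPKM, at 0.253 to 0.514 FPKM over the 6 libraries, and was not tested. GPT2 (NCBI gene 84706) lies on chromosome 16, 46884362 to 46931289.

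GLUL, glutamine synthetase, joins ammonia to glutamate and is known to be regulated largely at the level of its protein by glutamine. It read 6.07, 6.31 and 6.00 FPKM in control and 5.40, 5.50 and 5.46 FPKM in 6p. Every 6p library lay below every control library, but the gap was narrow and 57.5% of tested genes had groups that did not overlap (26.0% with 6p higher, 31.5% with 6p lower). The log2 fold change was -0.14 ± 0.07, with a 95% interval from -0.30 to 0.02 and adjusted p = 0.124. GLUL is the longest gene model of the 8, at 8283 nt, and genes in its decile of length had a median of -0.19. With the length trend removed the value was 0.05 (adjusted p in limma 0.628), the 1 setting in which its direction turned. On the TPM scale it passed with a value of -0.32 (adjusted p in limma 0.0407), so its call depended on the scaling. The ASNS to GLUL ratio, which sets the amidotransferase that uses glutamine against the enzyme that makes it, was 11.6, 11.7 and 13.5 in control and 109.8, 97.9 and 101 in 6p (difference in mean log2 ratio 3.07, exact permutation test, two-sided, p = 0.1). GLUL (NCBI gene 2752) lies on chromosome 1, 182378098 to 182391790, and 4 pseudogenes are named after it.

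The order of the 8 genes by level per length changed. In control, ASNS (75.2 ± 5.49 FPKM) and GOT2 (74.9 ± 3.30 FPKM) were highest and did not differ beyond their spread. PYCR1 (41.8 ± 3.56 FPKM) and GOT1 (41.8 ± 3.96 FPKM) followed at the same level, then ALDH18A1 (27.9 ± 1.24 FPKM), then GPT2 (9.71 ± 0.342 FPKM) and PCK2 (9.40 ± 1.04 FPKM), whose ranges overlapped, and last GLUL (6.13 ± 0.160 FPKM). In 6p, ASNS stood alone at 561 ± 28.7 FPKM, above GOT1 (99.5 ± 5.24 FPKM) and PYCR1 (93.5 ± 8.26 FPKM), whose ranges overlapped. PCK2 (63.4 ± 1.63 FPKM) was now above GOT2 (52.1 ± 3.80 FPKM), followed by ALDH18A1 (19.8 ± 1.28 FPKM) and GPT2 (17.5 ± 1.76 FPKM), which overlapped, and GLUL (5.46 ± 0.0501 FPKM). Summed over the 8 genes, the level lay between 281 and 299 FPKM in control and between 898 and 935 FPKM in 6p. ASNS alone made 25.1% to 27.2% of that sum in control and 59.9% to 63.5% in 6p.

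**Figure D3:**
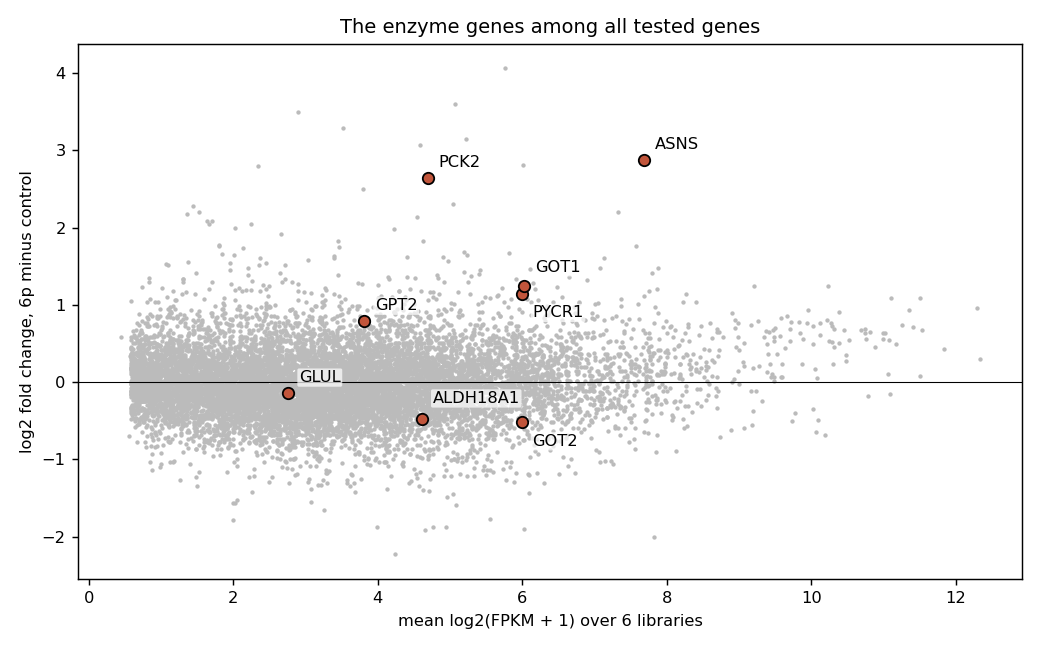
Log2 fold change of 6p against control (vertical axis) against the mean log2(FPKM + 1) over 6 libraries (horizontal axis) for all 11745 tested genes (grey), with the 8 enzyme genes in red. ASNS at 2.88 and PCK2 at 2.64 lie far above the grey cloud, GOT1 and PYCR1 lie at its upper edge, and GOT2, ALDH18A1 and GLUL lie within it.

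Neighbouring genes of the same reactions were then counted in 5 lists. Every list count here and below stands beside the shares over all tested genes, 21.3% higher and 25.1% lower. No set test was run, and a count near these shares says little about its list. Of the asparagine and aspartate genes other than ASNS, 4 of 8 tested were higher and 1 lower, with a median of 0.37. ASS1, argininosuccinate synthase, which joins aspartate to citrulline, read 0.651, 0.582 and 0.460 FPKM in control and 5.33, 5.21 and 5.79 FPKM in 6p. This was a rise from a low level, 9.65-fold in the mean and by 2.04 ± 0.08 on the log2(FPKM + 1) scale (adjusted p in limma 5.24e-06). Over the other settings the log2 fold change of ASS1 ran from 1.93 to 3.26. The gene has 11 named pseudogenes in GENCODE release 29. ASL, argininosuccinate lyase, the next enzyme of that path, rose from 25.5 ± 2.47 to 47.3 ± 0.323 FPKM. ADSS1, an adenylosuccinate synthase that uses aspartate for AMP synthesis, rose from 11.6 ± 0.325 to 20.1 ± 0.838 FPKM, and AGA, a lysosomal aspartylglucosaminidase, from 4.10 ± 0.100 to 7.20 ± 0.558 FPKM. ASNSD1, an asparagine synthetase domain protein, was 17.4 ± 1.41 FPKM in control and 18.3 ± 1.95 FPKM in 6p, with an adjusted p of 0.615. The member that fell was ASRGL1, an asparaginase, from 7.30 ± 0.326 to 4.75 ± 0.515 FPKM, named after its values were seen.

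Of 4 other proline and ornithine genes reported here, 1 was lower and 3 did not pass, with a median of -0.08. The lower gene was ALDH4A1, the mitochondrial dehydrogenase that returns proline carbon to glutamate, at 11.3 ± 0.0864 FPKM in control and 9.24 ± 0.751 FPKM in 6p (log2 fold change -0.27 ± 0.08, adjusted p = 0.0242). Leaving out control replicate 1, control replicate 2 or 6p replicate 3 ended the call of ALDH4A1, with adjusted p of 0.0705, 0.0886 and 0.0598, which left 0 changed genes of the 4 in limma. Adjusted p of ALDH4A1 with the replicate number as a block was 0.0771. OAT, ornithine aminotransferase, which links ornithine to the same intermediate, was 19.1 ± 1.37 FPKM in control and 18.0 ± 0.953 FPKM in 6p. Its adjusted p was 0.422, and on the TPM scale OAT passed with a value of -0.26 (adjusted p = 0.0232). PRODH, the proline dehydrogenase, was not analysed here.

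Among glutamine and glutamate genes, 4 of 12 tested and reported here were higher and 5 lower, with a median of -0.10. Lower genes numbered 2 without control replicate 2, and 3 without control replicate 1, 6p replicate 2 or 6p replicate 3, and 2 with the replicate number as a block. OPLAH, the 5-oxoprolinase that releases glutamate, rose from 1.85 ± 0.113 to 6.48 ± 0.657 FPKM, GFPT1, which uses glutamine to start hexosamine synthesis, from 7.00 ± 0.638 to 13.5 ± 0.591 FPKM, and NADSYN1, a glutamine-dependent NAD synthetase, from 8.18 ± 0.814 to 12.9 ± 1.17 FPKM. PPAT, the amidotransferase that starts purine synthesis, fell from 15.7 ± 1.27 to 9.55 ± 0.622 FPKM. GLUD1, glutamate dehydrogenase, was 65.5 ± 1.81 FPKM in control and 64.7 ± 4.51 FPKM in 6p, with overlapping ranges (adjusted p = 0.85). Glutamine-using enzymes were thus found on either side. GFPT1 and NADSYN1 rose, as did GFPT2 (0.37 on the log2 scale), and PPAT fell, as did PFAS (-0.91), CAD (-0.52), CTPS1 (-0.24) and GMPS (-0.19). The fall of GMPS equalled the median of its decile of length (-0.19). With the length trend removed GMPS read 0.01 (adjusted p = 0.904 in limma). The calls of CAD, CTPS1 and GFPT2 also ended in some settings, with adjusted p in limma of up to 0.14, 0.105 and 0.093. GFPT2, PFAS, CAD, CTPS1 and GMPS are named after their values were seen.

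Of the other aminotransferases, 3 of 6 tested were higher and 0 lower in limma, with a median of 0.28. Lower genes numbered 1 at an unadjusted p under 0.05 and 0 by limma voom on the recovered fragments. PSAT1, which moves the amino group of glutamate onto a precursor of serine, read 102, 101 and 107 FPKM in control and 353, 348 and 351 FPKM in 6p. The replicates of either group were close together, and it rose by 1.76 ± 0.08 (adjusted p = 6.97e-06). BCAT1, the cytosolic branched-chain aminotransferase, rose from 8.04 ± 0.892 to 13.7 ± 0.537 FPKM. KYAT3, a kynurenine aminotransferase, was 12.0 ± 1.89 FPKM in control and 16.3 ± 1.79 FPKM in 6p (log2 fold change 0.42 ± 0.12, adjusted p = 0.0221). Leaving out replicate 1 or 2 of control or replicate 1 or 3 of 6p ended that call, with adjusted p in limma of 0.0761, 0.074, 0.0557 and 0.0504. So did the TPM scale (0.0613) and the replicate number as a block (0.0625). With any of those 4 libraries left out, 2 of the 6 genes were higher, and with 6p replicate 2 left out, 3 were higher and 1 lower.

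For the malate-aspartate shuttle, in which malate carries reducing equivalents into mitochondria and the GOT enzymes interconvert aspartate and oxaloacetate, and for phosphoenolpyruvate synthesis, 0 of 7 tested genes were higher and 4 lower in limma, with a median of -0.28. Higher genes numbered 1 at an unadjusted p under 0.05 and 0 by limma voom. The shuttle genes MDH1, MDH2 and SLC25A11 did not pass, at 0.00, 0.11 and 0.21 on the log2 scale. Their adjusted p in limma was 0.993, 0.391 and 0.0716, and they are named after their values were seen. SLC25A12 and SLC25A13, the mitochondrial carriers that exchange aspartate for glutamate, fell from 10.4 ± 0.652 to 7.59 ± 0.652 FPKM and from 42.0 ± 1.18 to 34.1 ± 0.933 FPKM. SLC25A22, a mitochondrial glutamate carrier, fell from 14.7 ± 0.587 to 10.8 ± 0.830 FPKM. PC, pyruvate carboxylase, which makes oxaloacetate, was 1.33 ± 0.156 FPKM in control and 0.920 ± 0.148 FPKM in 6p (log2 fold change -0.28 ± 0.09, adjusted p = 0.0336). Leaving out replicate 1 or 2 of control or replicate 1 or 2 of 6p ended the call of PC, with adjusted p of 0.0973, 0.124, 0.0829 and 0.0551, as did removing the length trend (0.135) and the replicate block (0.0841). SLC25A13 lost its call without control replicate 2 (0.054) and with the block (0.0519), which left 2 lower genes of the 7 in either case. Without control replicate 3 the counts were 1 higher and 4 lower.

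Of 8 regulators of the ATF4 response, a list chosen with results of these data known, 7 were higher and 1 lower, with a median of 1.47. ATF4 itself rose from 36.7 ± 3.29 to 76.0 ± 4.16 FPKM (1.03 ± 0.09, adjusted p = 9.99e-05). CEBPB, a C/EBP factor known to bind the ASNS promoter, rose from 13.9 ± 2.12 to 72.2 ± 5.07 FPKM, and CEBPG, a C/EBP partner of ATF4, from 40.6 ± 0.333 to 114 ± 1.82 FPKM. DDIT3, a C/EBP-family factor of the stress response, rose by 2.81 ± 0.12 on the log2 scale, and TRIB3, a pseudokinase known to restrain ATF4, by 3.60 ± 0.08. The gene that fell was ATF5, by 0.90 on the log2 scale (SE 0.11), named after its values were seen.

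**Figure D4:**
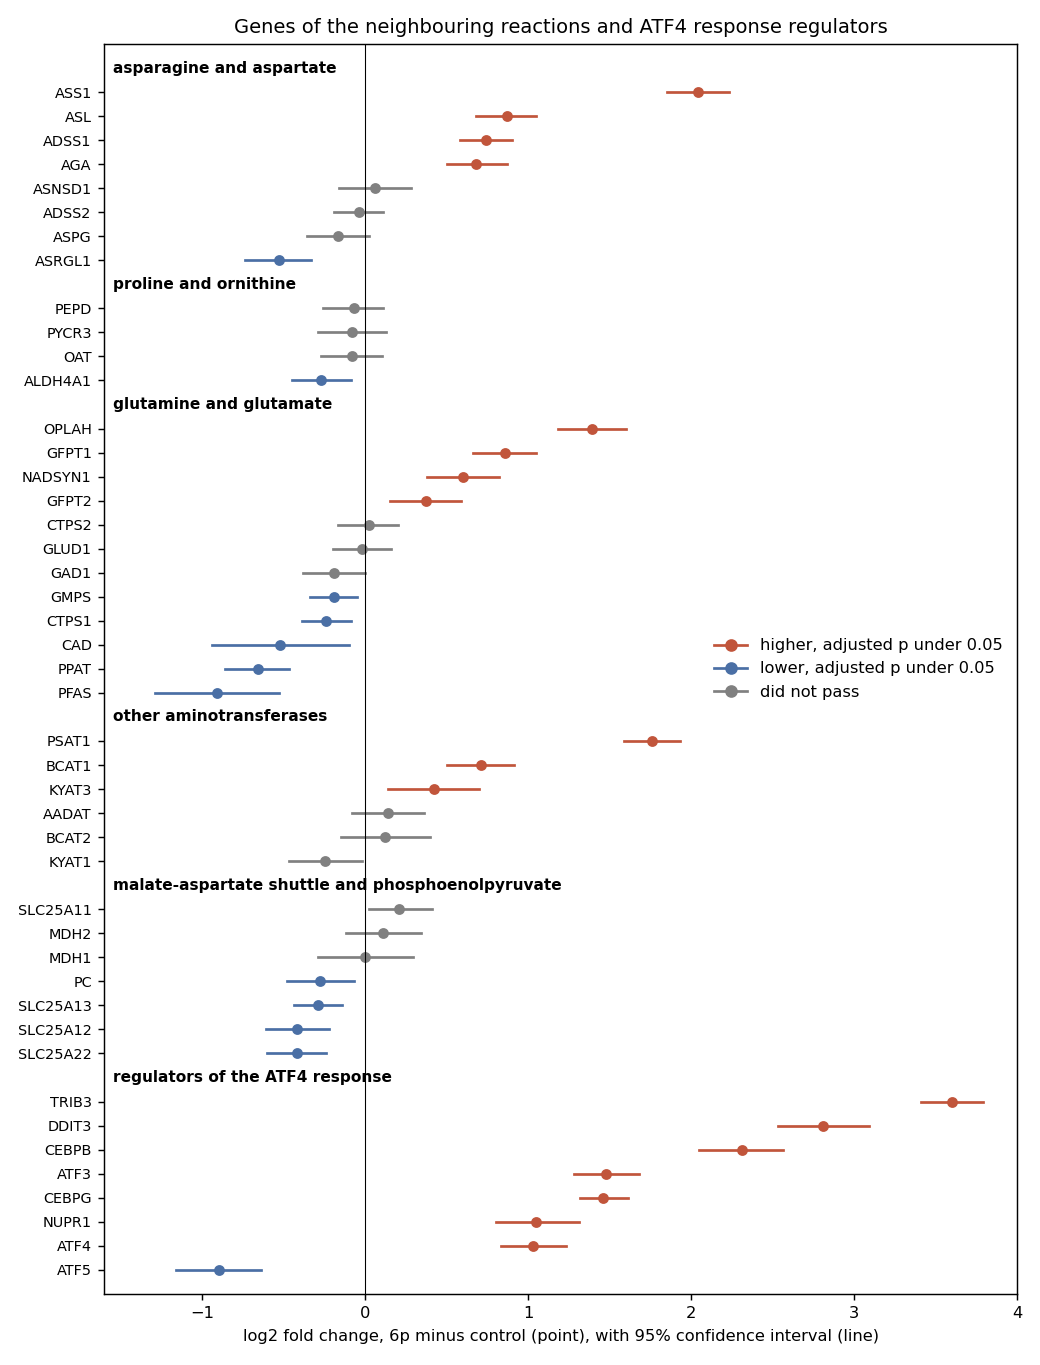
Log2 fold change of 6p against control (horizontal axis, points) with 95% confidence intervals (lines) for the tested and reported genes of the 5 neighbouring lists and of the ATF4 response list, red where higher, blue where lower and grey where the test was not passed. TRIB3 at 3.60, ASS1 at 2.04 and PSAT1 at 1.76 lead their lists, and the points of the malate-aspartate list lie between -0.42 and 0.21.

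The genes whose pattern over the 6 libraries was most like that of ASNS, by Pearson's correlation of log2(FPKM + 1) among 9903 genes, were DDIT4, an inhibitor of mTOR signalling (r = 0.9997), PSAT1 (0.9995) and SARS1, the cytosolic seryl-tRNA synthetase (0.9995). SARS1 read 75.9, 78.6 and 86.0 FPKM in control and 229, 220.3 and 224 FPKM in 6p, and like ASNS it was highest among controls in replicate 3 and among 6p libraries in replicate 1. Those most like ALDH18A1 were NCAPD2, a condensin subunit (0.9995), POLD3, a subunit of DNA polymerase delta (0.9994), and FASN, the fatty acid synthase (0.9994). NCAPD2 went from 131, 128 and 110.0 FPKM in control to 40.4, 54.2 and 54.7 FPKM in 6p, and like ALDH18A1 it was lowest among controls in replicate 3 and among 6p libraries in replicate 1. Such values take in both the difference between 2 groups and the 2 libraries that stood apart. The parts were not separated, and the values carry no p.

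Across the 20 other settings tried, the 7 genes that passed kept their direction and their call in each. The log2 fold change ran from 2.71 to 2.94 for ASNS, from 2.53 to 2.76 for PCK2, from 1.07 to 1.31 for GOT1, from 0.98 to 1.28 for PYCR1 and from 0.65 to 0.88 for GPT2. For the genes that fell it ran from -0.66 to -0.42 for ALDH18A1 and from -0.70 to -0.46 for GOT2. The highest adjusted p in limma among these 7 genes was 0.0175, for ALDH18A1 with the replicate number as a block.

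**Figure D5:**
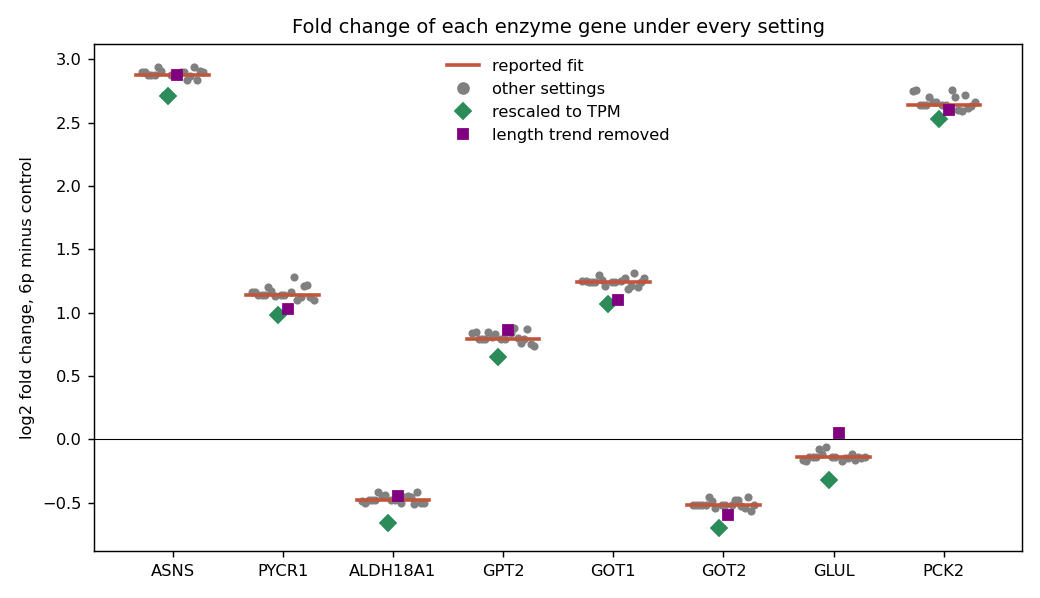
Log2 fold change of 6p against control (vertical axis) for each of the 8 genes in the reported fit (red line) and under the 20 other settings (points), with rescaling to TPM (green) and removal of the length trend (purple) marked. Values stay on their side of 0 for all genes except GLUL, which reads 0.05 with the length trend removed.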

How the data were processed

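The 3 control and 3 6p libraries were stranded TruSeq mRNA libraries of TRIzol-extracted RNA, as the labels' protocols state. FPKM values per gene are as deposited. Tools named in the submitters' processing notes are HISAT2, Trimmomatic, Cufflinks and HTSeq, with GRCh38 as the build. What each tool did, its version, the strand setting and the annotation release are not stated there. Whole fragments, library totals (given above) and gene lengths were recovered from the FPKM steps (tolerance 0.001), which worked for 100% of 11745 tested genes. Every pair of replicates differed by more than sampling noise, with chi-square per degree of freedom from 2.06 to 33.3.

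The test was limma 3.58.1 in R 4.3.3, two-sided, on log2(FPKM + 1), with trended and robust eBayes. It covered genes whose mean reached 0.5 FPKM, and p-values were adjusted over all of these by Benjamini and Hochberg's method. That scale understates changes of low genes. The steps were tested on simulated data that held no length trend and no library that stood apart. The error rate in the real libraries was not tested. Ratios were compared by exact permutation in Python 3.11.15. The members and lists were chosen with earlier results of these data known. Named genes are the 8 members, in each list up to 4 changed genes by adjusted p, 11 genes fixed by symbol, and the 3 genes most correlated with ASNS and with ALDH18A1. The labels call the samples independent without naming separate cultures, so p-values measure the spread between these samples, which may be technical. Some genes of the lists, and a ratio, are not reported here, and list counts and medians leave them out.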

Additional observations from a re-analysis of the deposited data

How the results depend on the processing

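The number of changed genes, 5457 in the reported fit, ran from 3517 (without control replicate 2) to 6084 when each library was left out in turn, and was 7742 without control replicate 3 and 6p replicate 1 together. For the proline and ornithine list the count of 1 ran from 0 to 1 when leaving out libraries, and was 3 after rescaling to TPM and 2 with the length trend removed. For the malate-aspartate list the count of 4 ran from 2 to 5. Deviations of same-numbered libraries of the 2 groups from their group means had correlations of -0.57, 0.33 and -0.42. Those of unlike-numbered libraries ran from -0.59 (control replicate 3 with 6p replicate 2) to 0.63 (control replicate 3 with 6p replicate 1). The latter are the 2 libraries that stood apart by gene length. Such values cannot show whether same-numbered samples were handled together. With the replicate number as a block 3694 genes changed, and 7 of the 8 members, 0 proline and ornithine genes, 6 glutamine and glutamate genes (9 in the reported fit) and 2 malate-aspartate genes were called. The 3 ratios kept their direction in every setting, including the removal of the length trend. GLUL read 0.05 with the length trend removed. ASNSD1 (0.06 in the reported fit) read -0.11 after rescaling to TPM, -0.02 with the length trend removed and -0.02 to 0.12 when leaving out libraries (lowest without 6p replicate 1). GLUD1 (-0.02) read 0.04 after median recentring, 0.01 after upper-quartile scaling, 0.02 with the length trend removed, 0.01 without the 2 libraries that stood apart and -0.06 to 0.03 when leaving out libraries (highest without 6p replicate 1). The cause of these changes was not tested. With 3 libraries a group, ratios cannot reach p under 0.1. Depth limits the low genes, such as GPT with 8 to 18 fragments per library.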
